A study of Homo sapiens with 12 samples.

Results

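The RNA of U373-MG cells before immunoprecipitation was described from 4 input libraries of the 12 in the series. U373-MG is a human glioblastoma line, and the labels name no genotype, treatment or passage that sets one culture apart from another. Every group, input included, came from cells treated with ultraviolet light to crosslink RNA to protein and then sonicated, since the study recovers RNA bound to the protein ADAR3, and the input sample is the RNA of the lysate taken without antibody. Each input library was made from 1 µg of total RNA after depletion of ribosomal RNA, with a strand-specific kit and 15 cycles of amplification. The 4 libraries were chosen by their titles, which number them as replicates 1 to 4. Nothing in the labels says that they came from separate cultures, so their spread may be technical.

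Input RNA is the reference against which RNA recovered by an antibody is read, because an abundant transcript is carried along more often than a rare one. Depletion of ribosomal RNA keeps transcripts without a poly(A) tail as well as messenger RNA, whereas selection on poly(A) tails would lose the former. The molecule label reads polyA RNA and differs from the depletion protocol on this point. A lysate of a cell line holds 1 kind of cell grown in medium, without the immune, vascular and neuronal cells of a tumour.

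The deposited table names 28061 genes by Ensembl ID and pairs none of them with a symbol. The reference table used here held 0 Ensembl IDs, so 0 of the 28061 genes could be named. The label of the cells could therefore not be checked against glial, neuronal or immune markers. Coding and non-coding shares and the lineage and pathway lists were likewise not analysed here. The genes are described below by level, and IDs are given only for the 2 most abundant genes and the 2 of widest spread.

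Replicates 1, 2, 3 and 4 held 12772412, 10122873, 4873428 and 9708834 reads assigned to genes. Levels are given in CPM, the reads of a gene for every 1000000 reads of the library. A single read is worth 0.0783 CPM in replicate 1, the deepest, and 0.205 CPM in replicate 3, the shallowest. This share grows with the length of a transcript. Order by CPM is thus an order of reads and not of molecules. Of the 4 libraries, replicate 1 moved the measures of spread most when it was left out, and the measures of spread it moved most are given with and without it.

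The input RNA was spread over many genes. A gene was called expressed at 1 CPM or more in all 4 libraries, which 13522 genes reached, or 48.2% of those listed. These expressed genes took 99.6% of the reads in each library. Of them, 9434 stood at 10 CPM or more in every library, 2040 at 100 CPM or more and 57 at 1000 CPM or more. The number of genes at 1 CPM or more in a single library was 14388 in replicate 1, 14191 in replicate 2, 14586 in replicate 3 and 14322 in replicate 4. The libraries thus differed little in this number, for which CPM already divides by the depth of each library.

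At the low end, 7101 genes had a mean under 0.1 CPM and are called silent here, and 7438 lay between the silent and the expressed genes. Silent genes together took 0.0314% ± 0.00465 of reads (SD, n = 4). Many of the listed genes rest on very few reads, as 3871 genes had 1 read over all 4 libraries and 6890 had at most 3. Reads were present in all 4 libraries for 18333 genes and in only 1 library for 4574. The genes seen in 1 library alone numbered 1691 in replicate 1, 1169 in replicate 2, 605 in replicate 3 and 1109 in replicate 4. This order follows the depth of the libraries. After every library was thinned to 4873428 reads, the same counts were 1147, 1008, 1170 and 991, and the shallowest library no longer had the lowest. A count of 0 in replicate 3 allows up to 0.616 CPM, taken as 3 reads and covering counting error only. Absence from a library is therefore not shown for a silent gene.

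Reads were spread unevenly over the listed genes. The 10 most abundant genes by mean CPM took 9.66% ± 0.535 of reads (SD, n = 4), the 100 most abundant 23.0% ± 0.585 and the 1000 most abundant 50.7% ± 0.474. Ranked within each library, 50 percent of reads lay in 987 genes of replicate 1, 959 of replicate 2, 971 of replicate 3 and 926 of replicate 4. By level, the 62 genes with a mean of 1000 CPM or more took 19.6% ± 0.578 of reads. The 2166 genes from 100 to 1000 CPM took 47.3% ± 0.395, the largest share of any level. The 7533 genes from 10 to 100 CPM took 31.1% ± 0.289 and the 4537 genes from 1 to 10 CPM 1.72% ± 0.0302. Most reads of the input therefore came from genes of middle to high level and not from the few at the top.

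**Figure D1:**
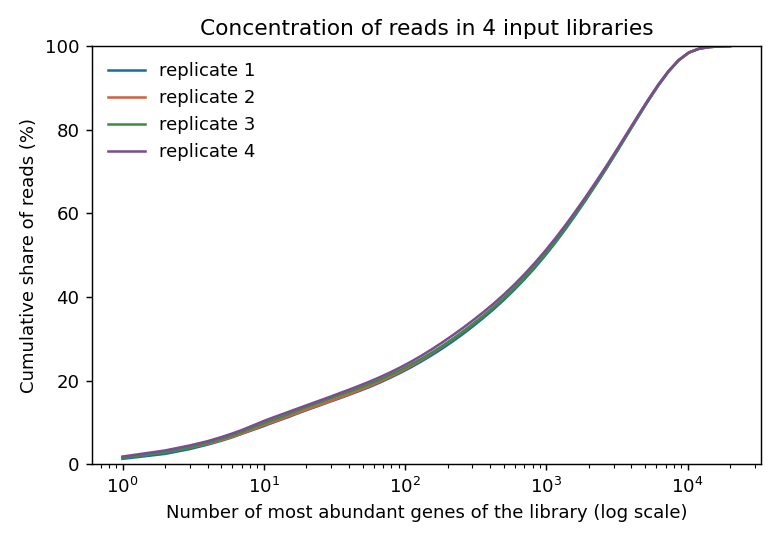
Cumulative share of reads (%, vertical) held by the most abundant genes of each of the 4 input libraries (number of genes, horizontal, log scale), with 1 line per replicate. The lines lie close together and cross 50 percent between 926 and 987 genes.

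The most abundant gene was ENSG00000276168, with 12982 CPM in replicate 1, 17142 in replicate 2, 15050 in replicate 3 and 18417 in replicate 4. Its mean was 15898 ± 2389 CPM (SD, n = 4), and replicate 4 stood 1.42-fold above replicate 1. The next gene, ENSG00000198804, had 11816, 11856, 13478 and 14552 CPM in the same order, with a mean of 12925 ± 1332 CPM. Both were lowest in replicate 1 and highest in replicate 4. Among the 30 most abundant genes, the tenth had a mean of 6329 CPM and the last 1790 CPM. Ratios of the highest to the lowest library in these 30 ranged from 1.05 to 1.42 with a median of 1.13. The leading gene thus had the widest ratio of the 30. Replicate 4 was the highest library for 13 of the 30 genes, replicate 3 for 7, replicate 1 for 6 and replicate 2 for 4. Replicate 2 was the lowest for 13, replicate 1 for 9 and replicates 3 and 4 for 4 each. The next shares are of the 15910 genes with a mean of at least 5 reads. Replicate 4 was highest for 8.86%, 5.03% and 7.88%, with replicates 1, 2 and 3 lowest in turn. Replicate 3 was highest for 7.66%, 8.99% and 10.2%, with replicates 1, 2 and 4 lowest in turn. Replicate 1 was highest for 8.06%, 8.45% and 13.5%, with replicates 2, 3 and 4 lowest in turn. Replicate 2 was highest for 7.775%, 8.32% and 5.37%, with replicates 1, 3 and 4 lowest in turn. The shares for a library at 1 end add up to its whole share at that end. The counts for the 30 genes were not tested.

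**Figure D2:**
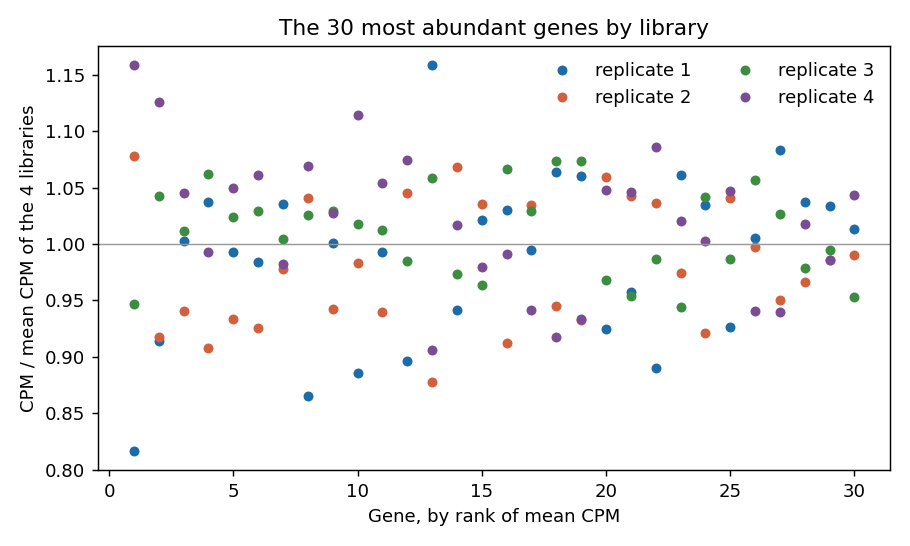
CPM of the 30 most abundant genes in each input library, divided by the gene's mean over the 4 libraries (vertical), against rank of mean CPM (horizontal). Points are single libraries, and the ratio of the highest to the lowest ranges from 1.05 to 1.42, widest for the gene of rank 1.

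The 4 libraries ranked the genes nearly alike. Across the 13522 expressed genes, which are not independent replicates, Pearson's r of log2(CPM + 0.5) ranged from 0.992 to 0.995 over the 6 pairs of libraries. These correlations run over the whole range of levels and say little about single genes. The SD of log2(CPM + 0.5) over the 4 libraries had a median of 0.12, with quartiles of 0.077 and 0.18. An SD under 0.1 was seen for 5314 of the expressed genes, one of at least 0.25 for 1647, one of at least 0.5 for 74 and one of at least 1 for 0. The common biological coefficient of variation, which edgeR estimates after removing counting error, was 6.42%. It was 4.81% without replicate 1 and between 6.23% and 7.04% without any other single library.

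The spread depended on the level of a gene. Genes at 1000 CPM or more had a median SD of 0.082 on the log2 scale, where the value computed for counting error alone was 0.012. Genes from 100 to 1000 CPM had a median SD of 0.076 against 0.039 from counting error, and genes from 10 to 100 CPM 0.11 against 0.084. For genes from 1 to 10 CPM the observed median of 0.22 lay below the 0.27 computed for counting error, a value that leaves out the pseudocount, which narrows the observed spread of low genes. With counting error removed, the order was different. The median biological coefficient of variation that edgeR gave per gene was 6.43% at 1000 CPM or more, 5.83% from 100 to 1000 CPM, 6.31% from 10 to 100 CPM and 8.11% from 1 to 10 CPM. It was thus similar over the 3 higher levels and highest at the lowest, where edgeR draws each gene's value towards those of other genes.

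**Figure D3:**
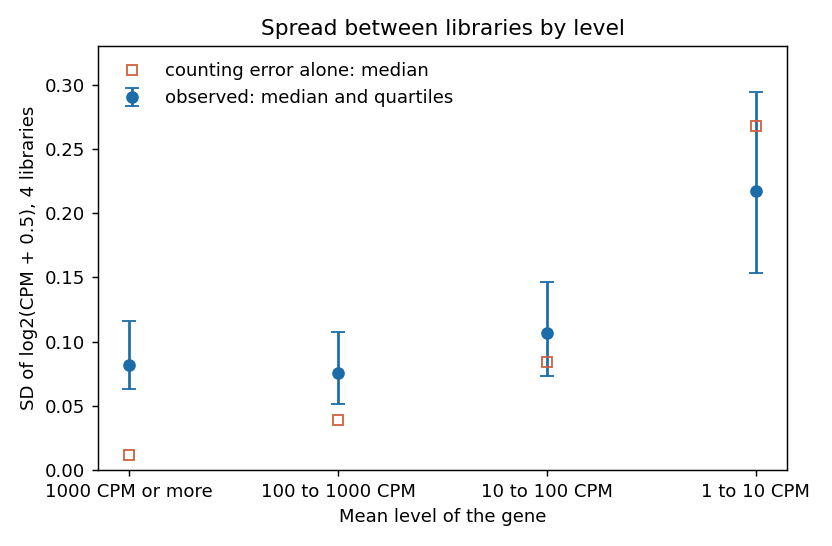
SD of log2(CPM + 0.5) over the 4 input libraries (vertical) for expressed genes of 4 levels of mean CPM (horizontal), as medians with quartiles (circles with bars). Open squares are the median of the value computed for counting error alone, a root mean square. The observed median lies above counting error at the 3 higher levels and below it from 1 to 10 CPM.

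Reads of each gene were tested against the library totals with a chi-square test over 15910 genes with a mean of at least 5 reads. At a Benjamini-Hochberg adjusted p under 0.05, 3010 genes varied beyond counting error, or 18.9% of those tested. Without replicate 1 the number was 896 (5.74% of 15603 tested), and with every library thinned to equal depth it was 1368. It compares these libraries and no conditions, and it treats reads as independent, which amplified reads without molecular identifiers are not. The call was made for 59 of 62 genes at 1000 CPM or more (95.2%), 56.2% of those from 100 to 1000 CPM, 20.1% from 10 to 100 CPM and 4.12% from 1 to 10 CPM. Without replicate 1 the shares in the same order were 87.1%, 21.9%, 4.09% and 1.17%. With and without that library, the share called rose with the level of the genes. At the same relative spread, the test calls a gene more easily when it has more reads. The rise therefore does not show that abundant genes vary more. The differences were small in size. The ratio of the highest to the lowest library, with 0.5 CPM added to both, had a median of 1.24 over the called genes, and 87.7% of them had a ratio under 1.5. A ratio of at least 2 was seen for 147 called genes, of which 11 had a mean of 10 CPM or more. For the 896 genes called without replicate 1, the median ratio was 1.21, 86.8% had a ratio under 1.5, and 49 had a ratio of at least 2, of which 5 had a mean of 10 CPM or more.

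The libraries did not share in this variation equally. At equal depth, 1204 genes differed beyond counting error between replicates 1 and 4 (8.39% of 14355 tested) and 797 between replicates 1 and 2 (5.55%). The other pairs differed less, with 358 genes for replicates 3 and 4 (2.49%), 339 for replicates 2 and 3 (2.35%) and 321 for replicates 1 and 3 (2.23%). Replicates 2 and 4 were closest, with 165 genes (1.15%). Every pair thus differed beyond counting error in some genes, which libraries made from 1 RNA could also do, and n = 4 counts libraries. The 3010 calls were made at full depth, where the same relative difference counts for more in a deep library. Shares of called genes therefore do not separate replicate 1, the deepest, from its depth. Replicate 1 was the highest or the lowest library for 75.5% of the 3010 called genes, compared with 54.2% of all genes tested. Replicate 3, the shallowest, was so for 31.0% of called genes and 51.5% of all genes tested. Replicate 1 was highest and replicate 4 lowest for 865 called genes, or 28.7% of them, compared with 13.5% of all genes tested. The opposite order, with replicate 4 highest and replicate 1 lowest, held for 413, or 13.7% of called genes and 8.86% of all genes tested. No batch, culture or date is given in the labels used here, and whether one of them moves with this difference was not tested.

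**Figure D4:**
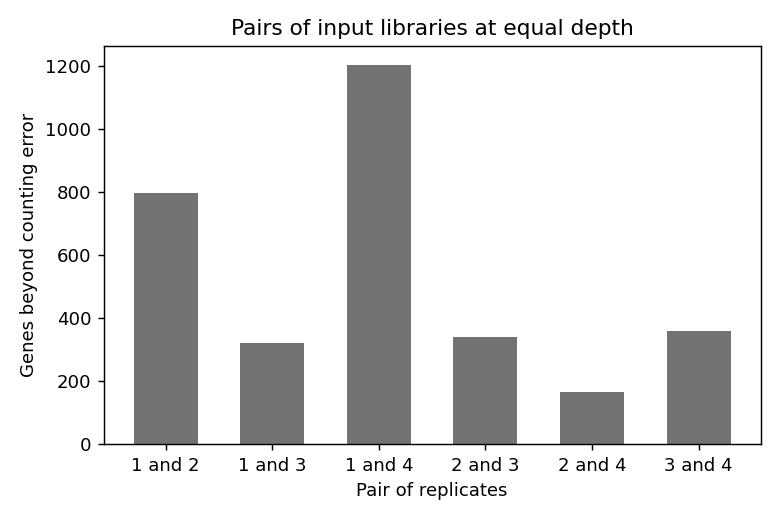
Number of genes whose reads differed beyond counting error (vertical, chi-square test, adjusted p under 0.05) for each of the 6 pairs of input replicates at equal depth (horizontal). The bar for replicates 1 and 4 is the highest at 1204 genes and that for replicates 2 and 4 the lowest at 165.

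Among genes with a mean of at least 10 CPM, those of widest spread were picked by their SD, so their values are a description. ENSG00000211459 had 33.9 CPM in replicate 1, 17.7 in replicate 2, 32.6 in replicate 3 and 9.68 in replicate 4. These values rest on 433, 179, 159 and 94 reads, and replicates 1 and 3 stood well above the other two. ENSG00000049246 had 24.1, 16.3, 18.7 and 7.72 CPM in the same order, from 308, 165, 91 and 75 reads. It was highest in replicate 1 and lowest in replicate 4, a ratio of 3.12. The 10 genes of widest spread had means of 10.5 to 121 CPM and ratios of 1.97 to 3.50. Of these 10, replicate 1 was the highest library for 8, and replicate 4 the lowest for 7 and replicate 3 for the remaining 3. Over all genes tested, replicate 1 was highest for 8.06%, 8.45% and 13.5%, with replicates 2, 3 and 4 lowest in turn. Replicate 4 was lowest for 13.5%, 5.37% and 10.2%, with replicates 1, 2 and 3 highest in turn. Replicate 3 was lowest for 8.45%, 8.32% and 7.88%, with replicates 1, 2 and 4 highest in turn. The shares listed for a library add up to its whole share at that end. The counts describe these 10 picked genes only and were not tested. The gene of widest spread and the leading gene by level therefore moved in opposite directions between replicates 1 and 4.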

How the data were processed

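The 4 input libraries were grouped and numbered from their titles, and no IP library was used. The submitters' processing notes list STAR 2.7.7a, featureCounts, DESeq2 and GRCh38 but not what each was used for. Which annotation and strand setting were applied is not given in the sources used here. Genes that overlap, lie antisense to each other or have close copies may therefore share reads. The signal deposited by the authors is a count scaled by 1 factor for each library. Dividing each column by its smallest value gave whole reads for 100% of values (tolerance 0.001 reads), and the table lists 0 genes without a read. Its remaining columns describe the intercept of a fit without groups: a log2 value that the authors deposited equals the log2 of the mean, and the deposited p-values and the deposited score of that fit concern no comparison and were not used.

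CPM were computed on library totals in Python 3.11.15. edgeR 4.0.16 (R 4.3.3) gave dispersions with an intercept alone, over expressed genes and with TMM factors from those genes. The TMM factors used to rescale CPM were computed over all listed genes. Expressed means at least 1 CPM in all 4 libraries, and silent a mean under 0.1 CPM. With 1 group there is no test between conditions. The rule for printed genes would have taken the 30 most abundant genes, the 15 most abundant non-coding genes, members of each list and the 10 genes of widest spread, and was limited to 2 IDs each for level and spread because no ID could be named. The part, the thresholds and the lists were chosen with earlier results of these data known.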

Additional observations from a re-analysis of the deposited data

How the results depend on the processing

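The share of the 10 most abundant genes, 9.66%, was 9.43% to 9.84% with 1 library left out. It was 9.66% with TMM scaling and with the deposited scale too, which is no check on the share. A factor per library cancels in a share of its reads, so scaling could change only which 10 genes were picked. The number of expressed genes, 13522, lay between 12251 at a threshold of 2 CPM and 14693 at 0.5 CPM, and between 13618 and 13676 with 1 library left out. The median SD of 0.12 on the log2 scale became 0.11 with a pseudocount of 2 and 0.16 without a filter on low values, which admits genes of few reads. With 1 library left out it was 0.10 (without replicate 1) to 0.12. The common biological coefficient of variation, 6.42%, was 4.81% (without replicate 1) to 7.04% with 1 library left out, and 6.43% to 6.52% under the other settings. Genes beyond counting error, 3010, became 1368 at equal depth, where fewer reads stand behind each gene. With 1 library left out they numbered 896 (without replicate 1, 5.74% of 15603 tested) to 3017, and the cause of that range was not tested. Shares by level and ratios without replicate 1 were added after seeing the data. Pairs of libraries were also tested without thinning, a setting chosen after seeing the data. The numbers ranged from 405 of 16144 tested (replicates 2 and 4) to 2760 of 16461 tested (replicates 1 and 4). No library stood apart from the other 3 in any of 27 sets of 4 values by Dixon's test, whose chance rate is about 1 set in 20. With 4 values, this test flags a library only when its gap to the nearest value takes most of their range. It therefore cannot show that the libraries are alike. Leaving out replicate 1 moved the common biological coefficient of variation and the number of genes beyond counting error most. No paired analysis was possible because only input libraries were analysed and no groups were compared. Settings for coding shares, gene lists and mitochondrial transcripts were not run, since no gene could be named. Depth limits low genes most.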
